A study of Macaca mulatta with 449 samples.

Results

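The astrocyte genes are a set of 9 genes used to mark astrocytes, chosen by their symbols: *GFAP*, *AQP4*, *SLC1A2*, *SLC1A3*, *ALDH1L1*, *GJA1*, *GJB6*, *S100B* and *SLC4A4*. Of these, 8 were matched to a row of the gene count table, which holds 30807 genes, and S100B was not analysed here. Astrocytes are the star-shaped glia that tile the grey and white matter of the brain. They take up glutamate and potassium released by neurons, couple to each other through gap junctions, and wrap blood vessels with endfeet that carry water channels. Their gene programme is known to differ between white and grey matter and between brain divisions, as in the fibrous astrocytes of tracts and the Bergmann glia of the cerebellum.

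The data were ribosomal RNA-depleted RNA sequencing of tissue pieces from 8 healthy rhesus macaques (*Macaca mulatta*). Each of the 51 sub-regions was sampled once in every animal, which gave 408 samples. The animals were 4 young ones of 3.2 to 5 years and 4 mid-aged ones of 9.8 to 10 years, and each age stage held 2 females and 2 males (Rhesus 4 and 10 were young females, Rhesus 7 and 8 young males, Rhesus 6 and 11 mid-aged females, Rhesus 2 and 3 mid-aged males). The sub-regions were joined into 16 region groups by summing counts within an animal: cortex (31 cortical sub-regions), hippocampus (HIP; CA1, CA3 and dentate gyrus), striatum (STR; accumbens nucleus, caudate nucleus and putamen), cerebellum (CB; cerebellar cortex and vermis), and 1 sub-region each for entorhinal and perirhinal cortex (PA), amygdala (AMY), globus pallidus (GP), thalamus (THA), hypothalamus (HTHA), substantia nigra (SN), ventral tegmental area (VTA), pons (PON), medulla oblongata (MO), olfactory bulb (OB), corpus callosum (CC) and pituitary (PIT). The replicate is the animal (n = 8 in every region group), and levels are in CPM (counts scaled to a fixed library size) after trimmed-mean scaling, which compare one gene across samples but not genes with each other. Total counts ran from 7784678 to 31083490 per sample. Among the 8 genes the lowest mean level was that of SLC1A2 in the pituitary, which rested on 5 to 17 counts per animal. These are pieces of bulk tissue, in which fewer astrocytes and less RNA of a gene per astrocyte cannot be told apart.

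The tissue labels were checked against markers of other cell types. Summed oligodendrocyte markers (8 genes, MBP among them) had a median of 3311 CPM in cortex and 105234 CPM in corpus callosum, where summed neuron markers (8 genes, SNAP25 among them) ran from 244 to 777 CPM against 11779.5 to 13622 CPM in cortex. Summed anterior pituitary markers (5 genes, PRL among them) were at 30857 to 350947 CPM in the pituitary and no higher than 273 CPM elsewhere. A few libraries stood apart from their group. The medulla oblongata of Rhesus 6 had 383 CPM of neuron markers against 5677 to 10170.0 CPM in the other 7 animals, and 93860.0 CPM of oligodendrocyte markers against 30417 to 65318 CPM. The hypothalamus of Rhesus 6 had the highest neuron marker sum of its group (8973 CPM against 3955 to 6601 CPM). In the pituitary, Rhesus 6 and 11 had 350947 and 243084 CPM of anterior pituitary markers against 30857 to 87391 CPM. Over the 15 groups outside the pituitary, summed markers ranged over single animals from 32.5 to 552 CPM for microglia, 140.2 to 706 for oligodendrocyte precursors, 89.04 to 322 for endothelial cells and pericytes, 2.24 to 214 for choroid plexus (highest in the corpus callosum of Rhesus 10) and 9.05 to 111 for ependymal cells, and the blood markers did not pass the filter. Called differences of the 8 genes from cortex that rest on these libraries are given with and without them.

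To find where the astrocyte genes were high or low, each region group was set against cortex, with the animal as a block (edgeR quasi-likelihood test, called at a Benjamini-Hochberg FDR below 0.05 and a fold above 2). Of 120 pairs of a gene and a region group, 19 were higher than cortex, 23 were lower and 78 were not called. Over all genes tested, 12.3% of pairs were higher and 12.2% were lower. Most of the higher pairs came from *GFAP* (11) and *AQP4* (6), and most of the lower ones from *SLC1A2* (11) and *SLC1A3* (5), while the pituitary was lower for all 8 genes. Of the 42 called pairs, 31 had no overlap between the 8 animals' values in the region group and in cortex, and over all 120 pairs 51 did not overlap, against 28.7% of pairs over all genes. A cortex value is a sum over 31 sub-regions of an animal. Overlap with cortex therefore refers to these sums and not to single cortex samples. All 8 genes differed among the 16 region groups in the joint F test, as did 99.7% of all genes.

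**Figure D1:**
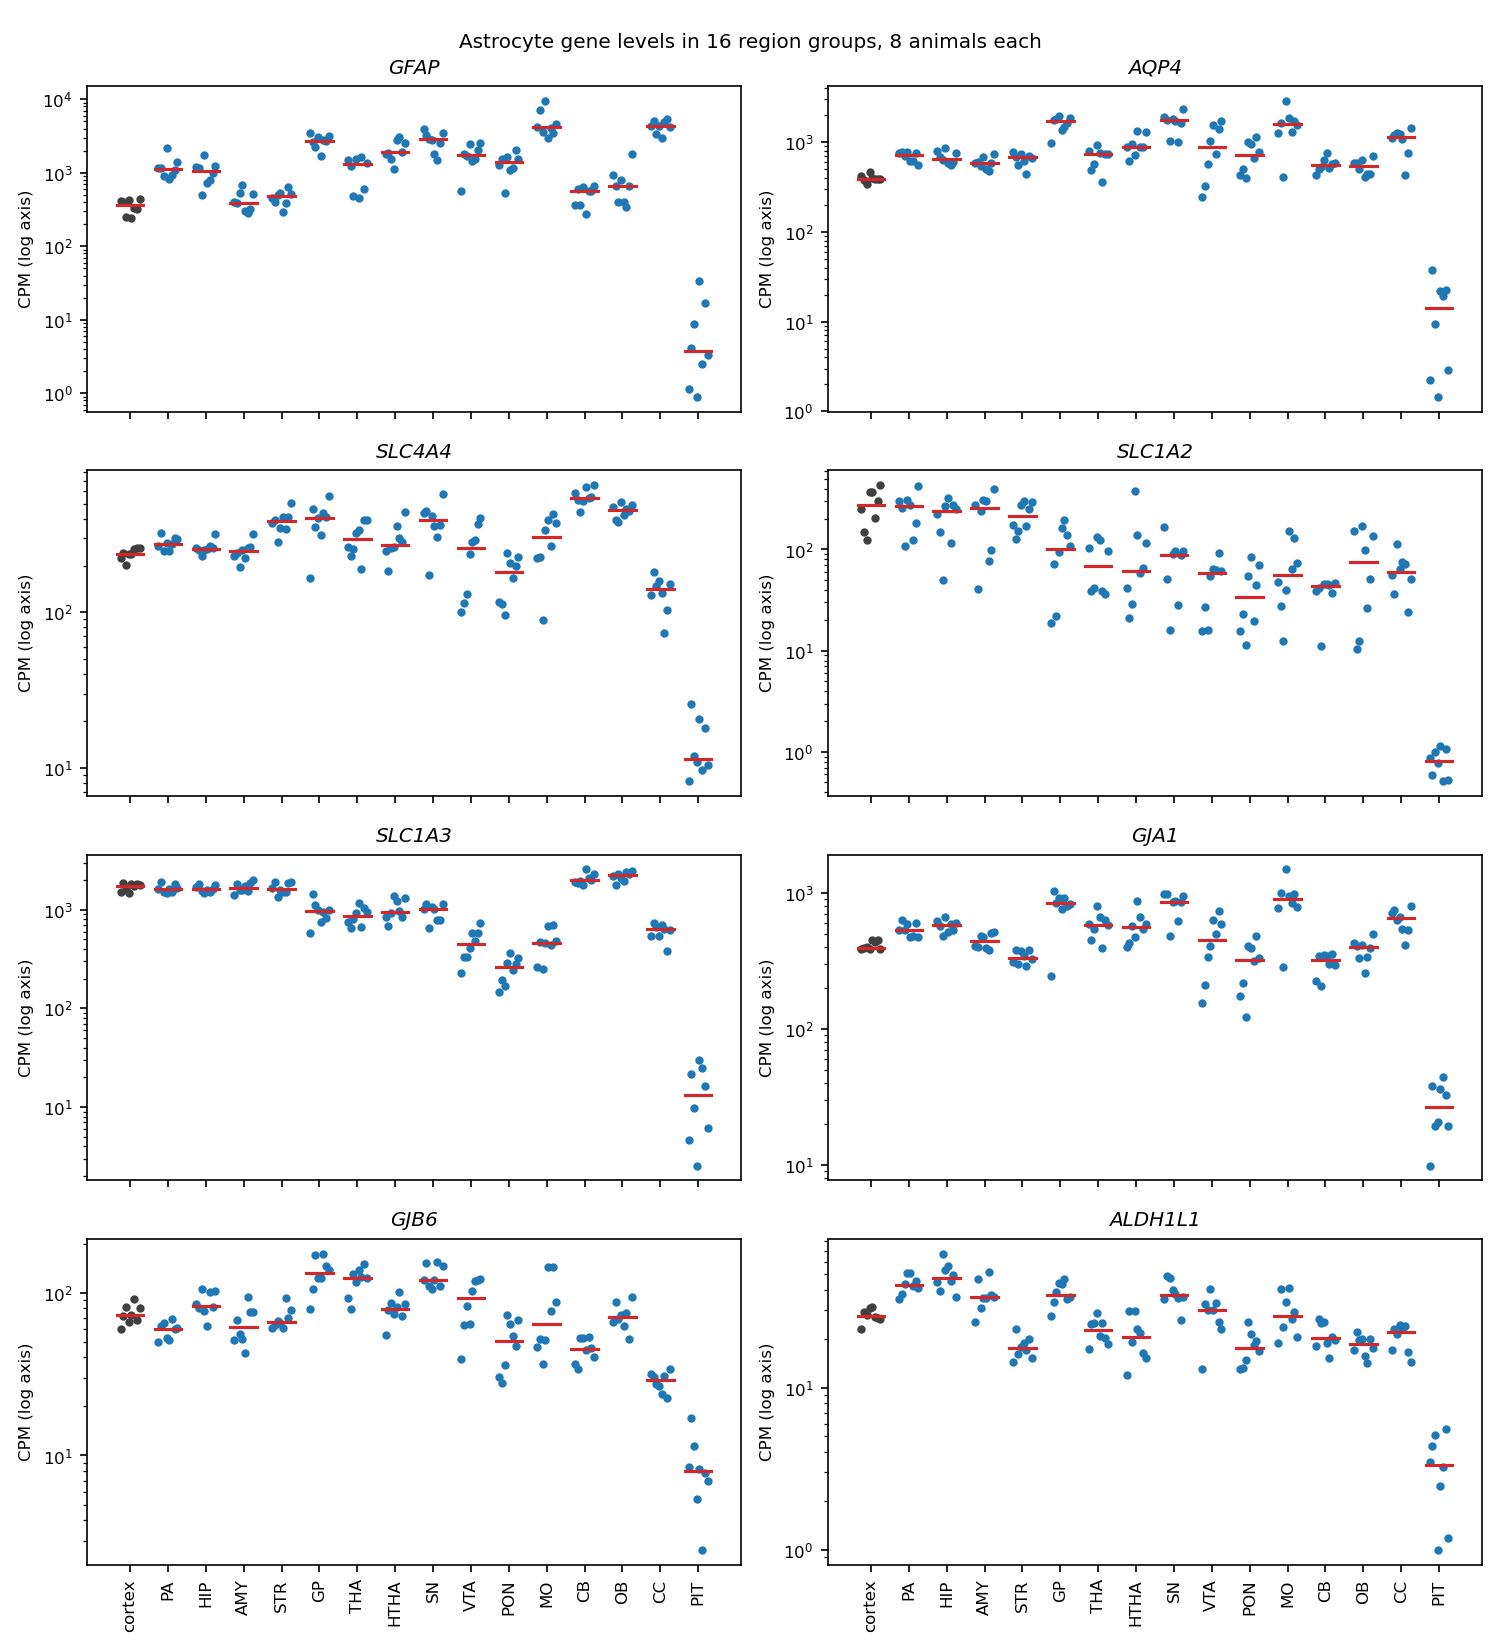
Level of each astrocyte gene (CPM, log axis) in the 16 region groups, with a point for each of the 8 animals and a red line at the median. The pituitary points lie below those of every other group for all 8 genes, GFAP is highest in medulla oblongata and corpus callosum, and SLC1A2 spreads widely between animals in most groups.

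*GFAP* (ENSMMUG00000013115), which encodes the intermediate filament of astrocytes, had the highest fold differences above cortex of the 8 genes. In cortex its lowest, median and highest animals were at 242, 370.2 and 437 CPM. In medulla oblongata they were at 2988, 4149 and 9553 CPM, and in corpus callosum at 2935, 4335 and 5397 CPM. Every animal in both groups was above every animal's cortex (log2FC = 3.78 ± 0.32, edgeR FDR = 8.3e-20 for medulla oblongata, and log2FC = 3.62 ± 0.32, edgeR FDR = 2.3e-19 for corpus callosum), and the difference between these groups did not pass the test (edgeR FDR = 0.65). Without the medulla oblongata of Rhesus 6, whose GFAP was 9553 CPM, the medulla value was 3.65. Its mean was then 4311 ± 1364 CPM (SD, n = 7), beside 4311 ± 841 CPM in corpus callosum. Corpus callosum was above the next group, the substantia nigra (1518, 2845 and 3971 CPM). The globus pallidus followed at 1670.1, 2728 and 3520.5 CPM, with a log2FC over cortex of 2.95 ± 0.31, beside 2.99 ± 0.31 for the substantia nigra. The lowest animal of either group was above the highest cortex value.

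A middle tier held hypothalamus (2085 ± 651 CPM, mean ± SD, n = 8), ventral tegmental area (1771 ± 634), pons (1359 ± 453), entorhinal and perirhinal cortex (1205 ± 423), thalamus (1099 ± 504) and hippocampus (1043 ± 378), with log2FC values over cortex of 2.62, 2.32, 1.92, 1.75, 1.62 and 1.52. The hypothalamus value was 2.71 ± 0.31 without its library of Rhesus 6. All 6 groups passed the test against cortex, and no neighbours within this tier passed the test against each other. Over the whole GFAP order 2 of 15 neighbour pairs passed that test, and the tier was drawn by mean level. The olfactory bulb passed narrowly (log2FC = 1.02 ± 0.29, edgeR FDR = 0.00163), with 338, 658 and 1813 CPM and overlap with cortex, and it was under the fold threshold without Rhesus 2 or Rhesus 11 (0.96 and 0.78). Cerebellum (505 ± 148 CPM), striatum (469 ± 108) and amygdala (427 ± 140.5) had log2FC values of 0.50, 0.42 and 0.28 and were not called. Summed oligodendrocyte markers were also above cortex in medulla oblongata (30417 to 93860.0 CPM), globus pallidus (49925 to 106694), substantia nigra (16583 to 34482) and corpus callosum (93669 to 125093), beside 2624 to 3442 CPM in cortex, and so were those of ventral tegmental area (42846 to 67149) and pons (30104 to 53276). In entorhinal and perirhinal cortex, where GFAP was also higher, they were at 1118 to 2134 CPM, below every cortex value. In striatum, where GFAP was not called, all 8 oligodendrocyte markers were called higher (log2FC = 1.25 for UGT8 to 1.75 for ERMN). All 8 were also called higher in hypothalamus and thalamus. Summed microglia markers (3 of 7 listed genes matched: CSF1R, P2RY12 and TREM2, none at 0) were at 53.8 to 82.3 CPM in cortex, and they too were above every cortex value in medulla oblongata (121 to 552), corpus callosum (133 to 392), globus pallidus (211 to 409) and substantia nigra (143 to 293), where all 3 genes were called higher. In entorhinal and perirhinal cortex they were at 95.5 to 157 CPM, in hippocampus at 87.7 to 173 and in cerebellum at 32.5 to 73.2. The part of either cell type in the GFAP levels was not tested.

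**Figure D2:**
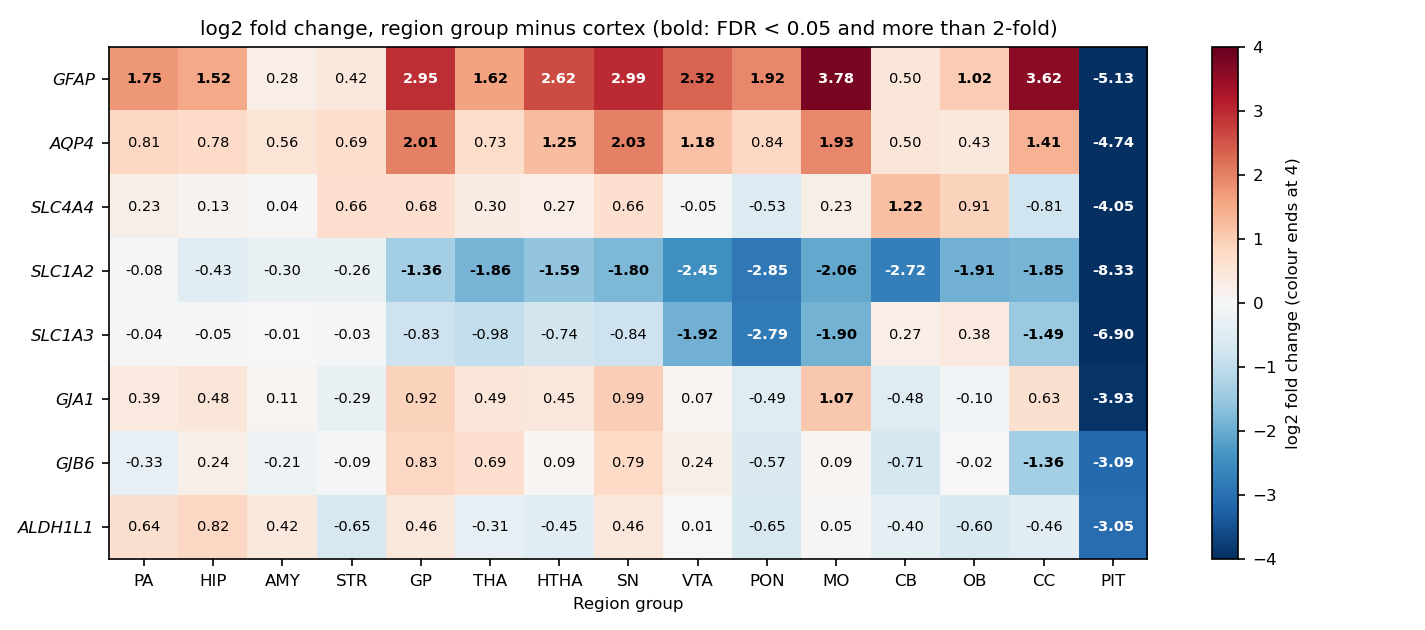
Difference of each region group from cortex for the 8 astrocyte genes, as log2 fold change in colour and as printed values, with called pairs in bold. GFAP is positive in 14 of 15 groups, SLC1A2 is negative in all 15, and the pituitary column is negative throughout.

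*AQP4* (ENSMMUG00000014934), the water channel of astrocyte endfeet, followed GFAP in direction with a smaller span. Its cortex animals lay at 346, 391 and 463 CPM, each a sum over 31 sub-regions. Single cortex samples ran more widely, from 165 CPM in Rhesus 4 to 638 CPM in Rhesus 6. Substantia nigra was at 1003, 1754 and 2325 CPM, and globus pallidus at 984, 1701 and 1942 CPM. In both, the lowest animal was above the highest cortex value, and the log2FC values were 2.03 ± 0.27 and 2.01 ± 0.27 (edgeR FDR = 7.2e-11 and 6.8e-11). Medulla oblongata, next in the order, was not called apart from either, at 406, 1598 and 2888 CPM (log2FC = 1.93 ± 0.27, and 1.79 ± 0.27 without the library of Rhesus 6). Its lowest library, that of Rhesus 4, lay inside the cortex range and the other 7 animals were above it. Corpus callosum (1066 ± 319 CPM, mean ± SD), hypothalamus (946 ± 247) and ventral tegmental area (946 ± 564) were also called (log2FC = 1.41, 1.25 and 1.18), the last with 2 of 8 animals below their own cortex. Without the hypothalamus of Rhesus 6 the hypothalamus value was 1.29 ± 0.27. In the other groups outside the pituitary AQP4 was 0.43 (olfactory bulb) to 0.84 (pons) above cortex on the log2 scale, under the fold threshold. The neighbours in the AQP4 order that passed the test of their difference were cortex and pituitary alone.

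*SLC4A4* (ENSMMUG00000016029), the sodium-bicarbonate cotransporter that links astrocyte pH to potassium, had another order. Cerebellum was highest at 442, 545 and 658 CPM, above every cortex animal (203, 239 and 260.3 CPM; log2FC = 1.22 ± 0.17, edgeR FDR = 1.1e-09). Olfactory bulb, at 383, 457 and 514 CPM, was not called apart from cerebellum and had a log2FC of 0.91 ± 0.17 over cortex, under the fold threshold. Globus pallidus, substantia nigra and striatum were each above cortex under the fold threshold, with log2FC values of 0.68, 0.66 and 0.66. Pons (170.5 ± 56.1 CPM) and corpus callosum (135 ± 34.02 CPM, log2FC = -0.81 ± 0.17) were below cortex (239 ± 19.6 CPM), the latter without overlap and also under the fold threshold. The corpus callosum thus stood high for GFAP and AQP4 and low for SLC4A4.

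The glutamate transporter genes pointed the other way. *SLC1A2* (ENSMMUG00000004329) encodes GLT-1, the main glutamate carrier of forebrain astrocytes, and its highest mean level was in cortex, at 125, 275 and 433 CPM. Entorhinal and perirhinal cortex (247.8 ± 106 CPM, mean ± SD), striatum (219 ± 70.5), amygdala (217 ± 128.4) and hippocampus (207 ± 92.7) were not called apart from it. Then came a step to hypothalamus (edgeR FDR = 0.00596 between hippocampus and hypothalamus), and all 10 groups from there down to cerebellum were lower than cortex. Cerebellum was at 11.1, 43.4 and 46.6 CPM (log2FC = -2.72 ± 0.38), and pons at 11.4, 33.7 and 85.01 CPM (log2FC = -2.85 ± 0.39). The other 8 ran from -2.45 in ventral tegmental area to -1.36 in globus pallidus on the log2 scale. Cortex itself spanned 125 to 433 CPM over animals, so 6 of these groups overlapped it: medulla oblongata, olfactory bulb, thalamus, substantia nigra, hypothalamus and globus pallidus. In the first 4 and in globus pallidus all 8 animals were below their own cortex, and in hypothalamus 7 were. The exception was Rhesus 6, with 374 CPM in the hypothalamus library that also had the highest neuron markers of its group. Without it the hypothalamus value was -2.10 ± 0.38 against -1.59 ± 0.37 with it. Summed neuron markers had medians of 15991 CPM in pons and 11482 CPM in cerebellum, the lowest groups for SLC1A2 outside the pituitary, beside 12792 CPM in cortex and 454 CPM in corpus callosum.

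*SLC1A3* (ENSMMUG00000006202) encodes GLAST, the carrier of Bergmann glia and radial glia. It was highest in olfactory bulb (1786, 2225 and 2459 CPM) and cerebellum (1758, 1985 and 2561 CPM), which were not called apart from each other or from cortex (1469, 1756 and 1863 CPM). Amygdala, striatum, entorhinal and perirhinal cortex and hippocampus had means of 1629 to 1688 CPM, with log2FC values against cortex from -0.013 in amygdala to -0.051 in hippocampus. Below a step (edgeR FDR = 0.00093), hypothalamus, globus pallidus, substantia nigra and thalamus had log2FC values of -0.74, -0.83, -0.84 and -0.98, all without overlap with cortex but under the fold threshold. Corpus callosum (603 ± 114 CPM), medulla oblongata (468 ± 165), ventral tegmental area (459 ± 167) and pons (251 ± 76.7) were called lower, with log2FC values of -1.49, -1.90, -1.92 and -2.79. Pons was below its neighbour in the order (edgeR FDR = 5.1e-05 against ventral tegmental area), at 147, 263 and 360.1 CPM. Medulla oblongata, with corpus callosum the highest group for GFAP, was thus in the lower part of the order for both glutamate carriers. Without its library of Rhesus 6 it was at -1.93 ± 0.39 for SLC1A2 and -1.91 ± 0.20 for SLC1A3, both still called.

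The gap junction genes had different orders. *GJA1* (ENSMMUG00000005225), which encodes connexin 43, was at 386, 395 and 453 CPM in cortex and 284, 897 and 1490.2 CPM in medulla oblongata (log2FC = 1.07 ± 0.20, edgeR FDR = 9.1e-07), where 7 of 8 animals were above their own cortex. This was its only call outside the pituitary, and it was under the fold threshold without Rhesus 6 (0.95 without that medulla library, 0.87 without the animal). Substantia nigra (823 ± 180.2 CPM, log2FC = 0.99 ± 0.20) and globus pallidus (792 ± 237 CPM, log2FC = 0.92 ± 0.20) were not called apart from medulla oblongata. Cerebellum (301 ± 58.01 CPM) and pons (305 ± 124) were lowest outside the pituitary. *GJB6* (ENSMMUG00000023295), which encodes connexin 30, was highest in globus pallidus (78.96, 131 and 173 CPM), substantia nigra (127 ± 20.7 CPM) and thalamus (119 ± 23.2 CPM), beside 59.6, 72.4 and 91.4 CPM in cortex (log2FC = 0.83, 0.79 and 0.69). Its called difference outside the pituitary was in corpus callosum, at 22.7, 28.9 and 34.2 CPM, below every animal's cortex (log2FC = -1.36 ± 0.18, edgeR FDR = 4.9e-11). GJA1 in the same corpus callosum samples was 0.63 ± 0.19 above cortex.

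*ALDH1L1* (ENSMMUG00000012488), a folate enzyme widely used as a general astrocyte marker, had no call outside the pituitary. Elsewhere its log2FC against cortex ran from -0.65 in striatum to 0.82 in hippocampus, and none passed the fold threshold. Hippocampus was highest at 36.3, 47.7 and 67.1 CPM, above every cortex animal (22.9, 27.7 and 31.4 CPM), followed by entorhinal and perirhinal cortex (43.4 ± 5.58 CPM), which was not called apart from it. Striatum was at 14.4, 17.5 and 22.9 CPM. The hippocampus difference passed the FDR but not the fold threshold (log2FC = 0.82 ± 0.14, edgeR FDR = 2.4e-07). Medulla oblongata (0.05 ± 0.14) and corpus callosum (-0.46 ± 0.14), the highest groups for GFAP, were inside the fold threshold for ALDH1L1.

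In the pituitary, a gland outside the blood-brain barrier whose posterior lobe holds astrocyte-related pituicytes, all 8 genes were at their lowest and differed from every other region group. The largest drop was that of SLC1A2, from 275 ± 113 CPM in cortex to 0.811 ± 0.247 CPM (log2FC = -8.33 ± 0.56), followed by SLC1A3 (14.5 ± 10.2 CPM, log2FC = -6.90 ± 0.24), GFAP (-5.13 ± 0.36) and AQP4 (-4.74 ± 0.31). The smallest were those of GJB6 (8.51 ± 4.30 CPM, log2FC = -3.09 ± 0.20) and ALDH1L1 (3.29 ± 1.69 CPM, log2FC = -3.05 ± 0.16), with SLC4A4 (-4.05) and GJA1 (-3.93) between. For each of the 8 genes the highest pituitary value was below the lowest value of every other region group. Among all genes tested 23.3% were lower in the pituitary, and without the pituitary libraries of Rhesus 6 and 11 all 8 differences kept their call, from -8.10 for SLC1A2 to -2.78 for ALDH1L1. Summed neuron markers in these libraries were 427 to 557 CPM and summed oligodendrocyte markers 18.2 to 56.4 CPM, also under the levels of cortex.

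By region group, the counts of the 8 genes called stood beside the share of all 16829 genes tested that were called higher and lower against cortex. In medulla oblongata 3 higher and 2 lower were called (15.8% and 12.5% of all genes), in corpus callosum 2 higher and 3 lower (20.2% and 24%), and in ventral tegmental area 2 higher and 2 lower (14.8% and 13.6%). Globus pallidus had 2 higher and 1 lower (17% and 17.8%), substantia nigra 2 higher and 1 lower (14.4% and 13.6%) and hypothalamus 2 higher and 1 lower (11% and 7.62%). These groups, with the pituitary (0 higher and 8 lower, 21.4% and 23.3% of all genes), held most of the calls. Pons had 1 higher and 2 lower (11.6% and 13.3%), cerebellum 1 higher and 1 lower (10.8% and 14.9%), olfactory bulb 1 higher and 1 lower (12.5% and 9.94%) and thalamus 1 higher and 1 lower (9.81% and 9.92%). Hippocampus (1 higher and 0 lower, 6.05% and 6.31%) and entorhinal and perirhinal cortex (1 higher and 0 lower, 5.51% and 3.40%) had GFAP alone, and striatum (0 higher and 0 lower, 8.73% and 8.18%) and amygdala (0 higher and 0 lower, 5.03% and 4.50%) had none. The median log2FC of the 8 genes was 0.76 in globus pallidus and 0.72 in substantia nigra, -0.63 in corpus callosum and -4.40 in the pituitary, beside medians over all genes within 0.03 of 0 in every group.

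A wider panel of 64 other genes with known roles in astrocytes was followed in the same tests. Of these, 52 were matched to a row of the count table, and 51 passed the filter on low counts. In globus pallidus 26 higher and 5 lower were called (50.98% and 9.80% beside 17% and 17.8% of all genes), in substantia nigra 22 higher and 5 lower (43.1% and 9.80% beside 14.4% and 13.6% of all genes) and in medulla oblongata 22 higher and 5 lower (43.1% and 9.80% beside 15.8% and 12.5% of all genes), with medians of 1.00, 0.90 and 0.69 on the log2 scale. Without the medulla library of Rhesus 6, 19 higher and 5 lower were called there, and 16 higher and 7 lower in hypothalamus without its library of Rhesus 6. The next groups, with the shares of the panel beside those of all genes, were olfactory bulb (19 higher and 3 lower, 37.3% and 5.88% beside 12.5% and 9.94%), corpus callosum (19 higher and 14 lower, 37.3% and 27.5% beside 20.2% and 24%), ventral tegmental area (17 higher and 5 lower, 33.3% and 9.80% beside 14.8% and 13.6%) and hypothalamus (16 higher and 3 lower, 31.4% and 5.88% beside 11% and 7.62%). In corpus callosum the lower share was thus close to that of all genes tested. Entorhinal and perirhinal cortex (12 higher and 1 lower, 23.5% and 1.96% beside 5.51% and 3.40%), thalamus (12 higher and 9 lower, 23.5% and 17.6% beside 9.81% and 9.92%), pons (10 higher and 9 lower, 19.6% and 17.6% beside 11.6% and 13.3%) and hippocampus (7 higher and 1 lower, 13.7% and 1.96% beside 6.05% and 6.31%) had fewer genes higher. Striatum (7 higher and 3 lower, 13.7% and 5.88% beside 8.73% and 8.18%) and amygdala (4 higher and 1 lower, 7.84% and 1.96% beside 5.03% and 4.50%) had shares within 6 percentage points of those of all genes. Cerebellum was the one brain group with more genes lower than higher (8 higher and 14 lower, 15.7% and 27.5% beside 10.8% and 14.9%, median -0.39). In the pituitary the counts were 15 higher and 26 lower, 29.4% and 50.98% beside 21.4% and 23.3% (median -1.72).

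By role, the genes listed for reactive astrocytes were 8 of 9 higher and 0 lower in medulla oblongata, 7 of 9 higher and 1 lower in corpus callosum and 7 of 9 higher and 1 lower in globus pallidus, where 15.8%, 20.2% and 17% of all genes were higher. Without the medulla library of Rhesus 6, 7 higher and 0 lower were left there. In the same groups the microglia markers CSF1R, P2RY12 and TREM2 were also all called higher (median log2FC = 2.14, 1.99 and 2.18), and the reactive list holds complement C3, which microglia express as well (log2FC = 3.04, 3.16 and 2.87). In olfactory bulb SERPINA3, C3, OSMR, SERPING1, TIMP1 and CP were also called higher, and CHI3L1, CD109 and LCN2 were not called. There TREM2 was called higher (log2FC = 1.23), and CSF1R (0.76) and P2RY12 (0.36) were not called. In hypothalamus 6 of 9 were higher and 0 lower (11% of all genes higher). There CSF1R (log2FC = 1.33) and TREM2 (1.15) were also called higher, and P2RY12 (0.70) was not called. In substantia nigra, where all 3 microglia markers were called, SERPINA3, CHI3L1, C3, OSMR, TIMP1 and CP were higher. The part of microglia in these calls was not tested. SERPINA3, a serine protease inhibitor of that list, was at 116 ± 44.4 CPM against 2.39 ± 0.610 CPM in cortex (SD, n = 8; log2FC = 5.55 ± 0.51, edgeR FDR = 9.8e-19) in corpus callosum. Filament and matrix genes were 5 of 5 higher and 0 lower in corpus callosum, where CD44, a hyaluronan receptor of fibrous astrocytes that other cells also express, was at 48.5 ± 9.84 CPM against 0.914 ± 0.406 CPM in cortex (SD, n = 8; log2FC = 5.78 ± 0.33, edgeR FDR = 1.9e-32). Both genes were also among the 3 largest panel differences in medulla oblongata (log2FC = 6.35 for CD44 and 5.04 for SERPINA3). Genes of transmitter uptake and metabolism went in both directions. They were 4 of 9 higher and 1 lower in globus pallidus (17% and 17.8% of all genes). In substantia nigra they were 3 of 9 higher and 1 lower (14.4% and 13.6%). Ventral tegmental area had 3 of 9 higher and 1 lower (14.8% and 13.6%). Olfactory bulb had 3 of 9 higher and 0 lower (12.5% and 9.94%). Corpus callosum had 2 of 9 higher and 5 lower (20.2% and 24%). Cerebellum had 0 of 9 higher and 5 lower (10.8% and 14.9%), and the pituitary 0 of 9 higher and 5 lower (21.4% and 23.3%). In the other 8 groups at most 2 were higher and 1 lower. Secreted factors were 1 of 8 higher and 4 lower in pons, where WIF1, an inhibitor of Wnt ligands, was at 0.455 ± 0.216 CPM against 131 ± 43.1 CPM in cortex (SD, n = 8; log2FC = -8.13 ± 0.64, edgeR FDR = 4.8e-22). Of all genes, 11.6% were higher and 13.3% lower in pons. In the pituitary the secreted factors were 1 of 8 higher and 5 lower (21.4% and 23.3% of all genes). In cerebellum SPARCL1, GPC4, GPC5 and WIF1 were lower (14.9% of all genes lower), and CLU, APOE, CHRDL1 and AGT were not called. Secreted factors had at most 2 genes higher in any group. Receptors were 0 of 7 higher and 7 lower in the pituitary (21.4% and 23.3% of all genes). They were 3 of 7 higher and 1 lower in globus pallidus (17% and 17.8%). In corpus callosum they were 1 of 7 higher and 3 lower (20.2% and 24%), with at most 2 in either direction elsewhere.

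KCNJ16, an inwardly rectifying potassium channel subunit, was among the 3 largest panel differences in globus pallidus, hypothalamus, substantia nigra, thalamus and ventral tegmental area, at 44.02 ± 9.44 CPM against 2.31 ± 0.608 CPM in cortex (SD, n = 8; log2FC = 4.27 ± 0.29, edgeR FDR = 1.9e-26) in substantia nigra. In cerebellum the panel's largest differences were TNC, a matrix glycoprotein (0.945 ± 1.11 against 19.5 ± 4.74 CPM, log2FC = -4.40 ± 0.48, edgeR FDR = 2e-14), SLCO1C1, a thyroid hormone carrier (log2FC = -4.10), and GDF10, a growth factor of Bergmann glia (10.4 ± 4.05 against 0.859 ± 0.198 CPM, log2FC = 3.60 ± 0.28, edgeR FDR = 2.1e-22). The pituitary's were ETNPPL, KCNJ10 and MLC1 (log2FC = -8.05, -7.31 and -7.22), an astrocyte phospholyase, the Kir4.1 channel and an endfoot membrane protein. Reactive-list genes were 8 of 9 higher and 1 lower there (21.4% and 23.3% of all genes). That list holds genes that endocrine, vascular and immune cells also express. Potassium channel, pump and adhesion genes were 3 of 6 higher and 0 lower in globus pallidus and 2 of 6 higher and 4 lower in the pituitary. Transcription factor genes were 4 of 5 higher and 0 lower in globus pallidus, where 17% of all genes were higher and 17.8% lower. Genes of Bergmann glia were 1 of 2 higher and 1 lower in cerebellum (10.8% and 14.9% of all genes).

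Because a sample's scaling factor nearly cancels in a ratio of genes from 1 sample, 3 ratios were compared with cortex. Ratios were of log2(CPM + 1), with an exact sign-flip permutation test over the 8 animals, two-sided, adjusted over 45 tests. The smallest p this permutation test allows here is 0.00781, or 0.0185 adjusted. With 1 CPM added the scaling does not cancel for genes near 1 CPM, such as SLC1A2 in the pituitary (mean 0.811 CPM). With 0.1 CPM added instead, all 23 ratio calls stayed the same. The log2 ratio of SLC1A3 to SLC1A2 was 5.78 ± 0.66 in cerebellum and 5.32 ± 1.57 in olfactory bulb (mean ± SD, n = 8), against 2.74 ± 0.67 in cortex. All 8 animals were higher in both, by 3.04 ± 0.64 and 2.58 ± 0.96 (exact permutation, adjusted p = 0.0185 for each). Substantia nigra (1.09 ± 0.60), hypothalamus (1.06 ± 0.55) and thalamus (0.92 ± 0.61) were also higher, and the other 10 groups were not called. The hypothalamus call was lost on leaving out any of 7 animals. Pons differed from cortex by 0.11 ± 0.40 and medulla oblongata by 0.30 ± 0.62, although each carrier on its own was called lower in both. Without the libraries of Rhesus 6 the medulla value was 0.12 ± 0.40 and the hypothalamus value 1.23 ± 0.31.

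The log2 ratio of GJB6 to GJA1 was lower than cortex in corpus callosum (-4.41 ± 0.29 against -2.47 ± 0.20, a difference of -1.94 ± 0.27), medulla oblongata (-1.04 ± 0.78), entorhinal and perirhinal cortex (-0.71 ± 0.14) and hypothalamus (-0.33 ± 0.27). In the first 3 all 8 animals were lower (exact permutation, adjusted p = 0.0185 each). The hypothalamus call was lost without the library of Rhesus 6 (exact permutation, adjusted p = 0.0563), as on leaving out any of 7 animals, and the medulla oblongata value was -0.87 ± 0.64 without its library of Rhesus 6. The log2 ratio of GFAP to ALDH1L1 was higher than cortex in 13 groups and lower in the pituitary (-2.97 ± 1.67). The calls of the pituitary and of hippocampus (0.72 ± 0.46) were each lost on leaving out any of 7 animals. It was largest in corpus callosum (7.64 ± 0.44 against 3.60 ± 0.42) and medulla oblongata (7.30 ± 0.61), where the lowest animal was above the highest cortex value. The medulla difference was 3.71 ± 0.37, and 3.62 ± 0.28 without the library of Rhesus 6. The pituitary difference was -2.82 ± 1.93 without Rhesus 6 and 11 (exact permutation, adjusted p = 0.10). Striatum (1.03 ± 0.42) and cerebellum (0.87 ± 0.40), in which GFAP alone was not called, had all 8 animals higher (exact permutation, adjusted p = 0.0185 each). Amygdala was not called (-0.15 ± 0.66, 3 of 8 animals higher).

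**Figure D3:**
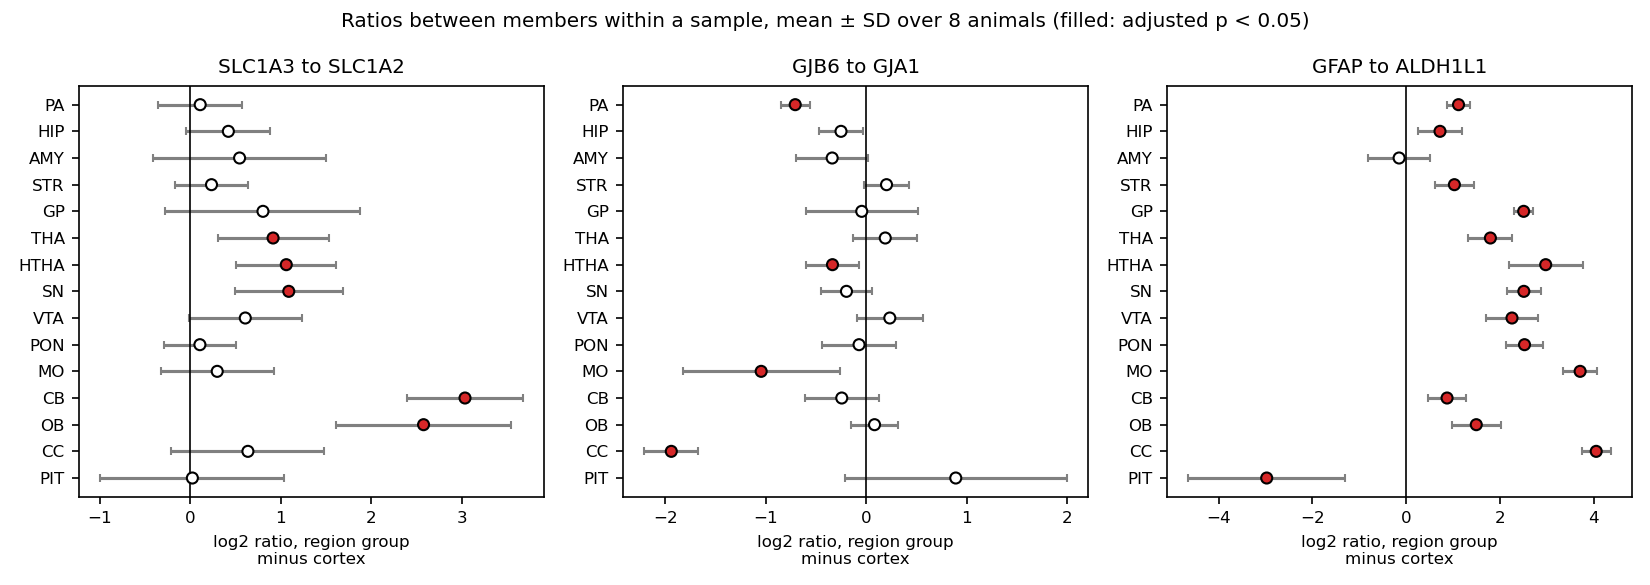
Difference from cortex of 3 log2 ratios between astrocyte genes within a sample, mean ± SD over 8 animals for each of 15 region groups, with filled points where the adjusted p of the exact permutation test was below 0.05. SLC1A3 to SLC1A2 is furthest right in cerebellum and olfactory bulb, GJB6 to GJA1 furthest left in corpus callosum, and GFAP to ALDH1L1 is right of 0 in 13 groups.

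Within cortex, 7 of the 8 genes differed among the 31 sub-regions (joint F test, edgeR FDR below 0.05, as for 75% of all genes). The exception was SLC1A2 (edgeR FDR = 0.23). When each sub-region was set against the mean of the other 30, 36 pairs of a gene and a sub-region were higher, 35 lower and 177 not called, beside 10.1% and 8.65% over all genes. Without the animal as a block, 44 pairs were called in place of 71. The sub-region fold changes were small, and 7 pairs exceeded 1.5-fold.

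GFAP varied most, with 9 sub-regions higher and 7 lower. By lobe its mean level was 432 ± 124 CPM in frontal sub-regions and 184 ± 44.9 CPM in occipital ones (SD over 8 animals), with parietal (291 ± 68.1 CPM), temporal (313 ± 84.9 CPM) and limbic (373 ± 63.2 CPM) sub-regions between. The posterior superior occipital gyrus was lowest at 95.4, 155 and 258 CPM (log2FC = -0.95 ± 0.14, edgeR FDR = 4.4e-09), and the anterior superior and inferior occipital gyri were next (-0.81 and -0.71). The occipito-temporal gyrus (-0.60) and cuneus (-0.57) were low as well. The anterior cingulate gyrus was highest at 433, 588 and 706 CPM (log2FC = 0.92 ± 0.12, edgeR FDR = 6e-12), followed by insula (0.70) and temporal pole (0.66). Highest and lowest sub-region means were 578 and 171 CPM, a ratio of 3.38.

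AQP4 followed the same sides, lower in all 3 occipital sub-regions (-0.50, -0.49 and -0.38 for inferior, posterior superior and anterior superior gyri), cuneus (-0.35) and 3 other sub-regions, and higher in temporal pole (0.35), insula (0.33) and 6 others. SLC1A3 was lower in the 3 occipital sub-regions and cuneus too (-0.27 in cuneus) and higher in ventromedial prefrontal cortex (0.25) and both precentral gyri (0.24 superior and 0.24 inferior). GJA1 was higher in 4 frontal gyri (0.24 in the posterior superior one) and lower in 5 parietal, occipital and limbic ones (-0.25 in the annectant gyri). ALDH1L1 was highest in anterior cingulate gyrus (0.40) and temporal pole (0.31) and lowest in the hippocampal gyrus (-0.25). SLC4A4 was higher in both precentral gyri (0.25 superior and 0.32 inferior).

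GJB6 took another course. It was lowest in temporal pole, at 42.3, 50.01 and 70.6 CPM (log2FC = -0.47 ± 0.07), and low in insula (-0.24), where GFAP and AQP4 were high, and in hippocampal gyrus (-0.35). It was higher in inferior postcentral (0.25), superior precentral (0.24) and inferior precentral gyri (0.23), and without the animal as a block the calls of insula and of these 3 gyri were lost. Across the 31 sub-region means, GFAP ran against summed neuron markers (Pearson r = -0.87, Spearman rho = -0.94) and GJB6 with them (0.52 and 0.38). For summed oligodendrocyte markers the values were -0.67 and -0.61 for GFAP, and 0.67 and 0.65 for GJB6. These are descriptions over 31 points that share the same 8 animals and libraries. Summed neuron markers ran from 9239 CPM in temporal pole to 14594 CPM in cuneus, and their part in the sub-region differences was not tested.

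**Figure D4:**
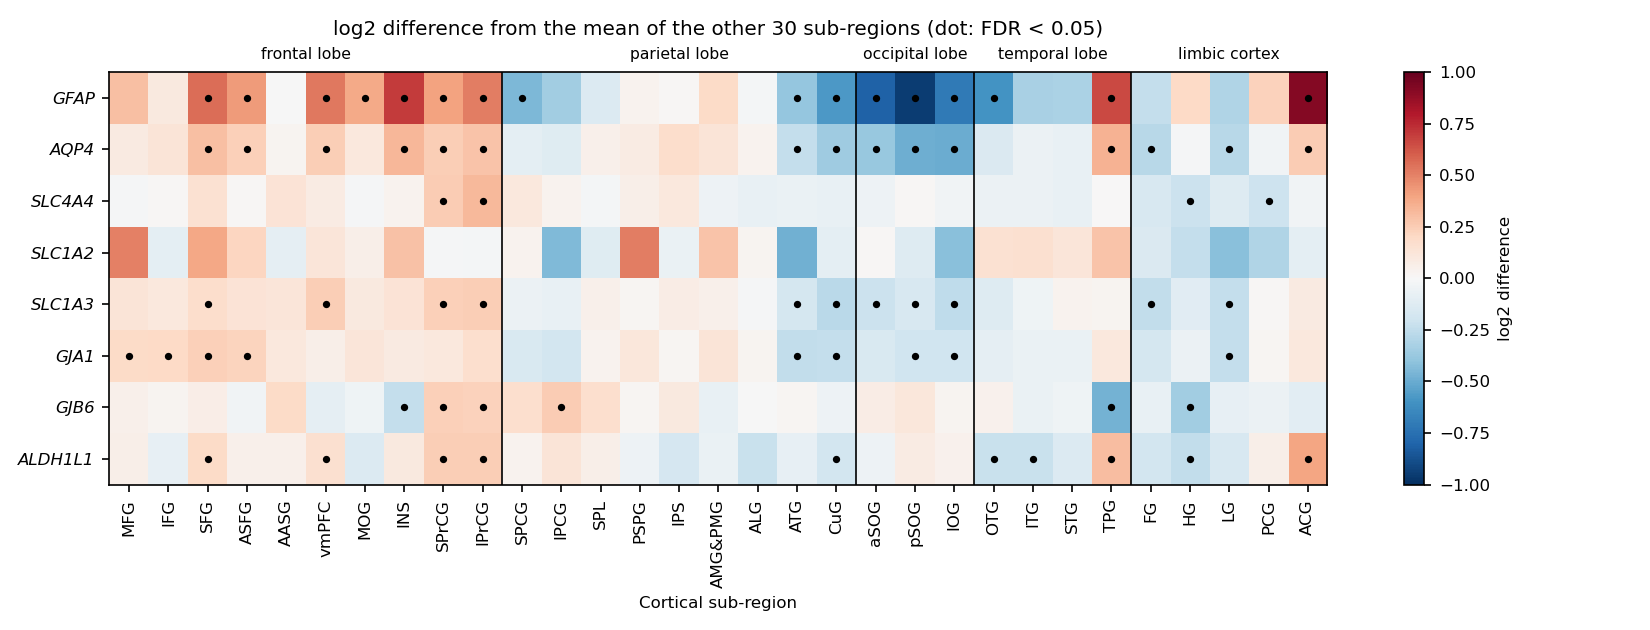
Difference of each of 31 cortical sub-regions from the mean of the other 30 (log2, colour) for the 8 astrocyte genes, ordered by lobe, with a dot where the edgeR FDR was below 0.05. GFAP and AQP4 are low across the occipital columns and high in insula, temporal pole and anterior cingulate gyrus, and the SLC1A2 line holds no dot.

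The animals differed as well as the sub-regions. Of the variance of log2 CPM over the cortex samples, sub-region took 48.98% and animal 24.5% for GFAP, and 47.1% and 13.6% for AQP4. For SLC1A2 the order was reversed, with 7.13% for sub-region and 48.2% for animal, and for GJB6 the shares were 29.1% and 39.1%. The medians over all genes were 18.98% and 27.8%. The mean SLC1A2 level over the 31 sub-regions was 121 CPM in Rhesus 4, 137 in Rhesus 3, 197 in Rhesus 8, 236 in Rhesus 2, 281 in Rhesus 10, 359 in Rhesus 7, 376 in Rhesus 6 and 423 in Rhesus 11. Low and high animals came from both age stages and both sexes. Single samples of 1 animal overlapped those of the others (Rhesus 4 spanned 17.2 to 407 CPM, Rhesus 11 81.9 to 615 CPM).

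Among the sub-regions of hippocampus, striatum and cerebellum, 16 of 56 comparisons were called at an edgeR FDR below 0.05. Of these, 10 of 24 were in striatum (background over all genes 36.7%), 6 of 24 in hippocampus (21.3%) and 0 of 8 between cerebellar cortex and vermis (0.842%). Without the animal as a block 6 comparisons were called, namely GFAP and AQP4 in caudate against putamen, GFAP and GJB6 in accumbens against putamen, and SLC1A3 in both CA fields against dentate gyrus. In striatum GFAP was at 459, 694 and 847 CPM in caudate nucleus, 219, 359 and 1023 CPM in accumbens nucleus and 91.9, 184 and 527 CPM in putamen. Caudate was above putamen in 8 of 8 animals (log2FC = 1.59 ± 0.29, edgeR FDR = 0.00037) and accumbens in 6 of 8 (0.93 ± 0.30), the latter not called without Rhesus 4. AQP4 was likewise higher in caudate (0.66 ± 0.15) and accumbens (0.46 ± 0.15) than in putamen, the latter not called without Rhesus 2, 8 or 10. GJB6 and ALDH1L1 were lower in caudate than in putamen in every animal (-0.31 ± 0.07 and -0.37 ± 0.09), with GJB6 at 66.8, 78.3 and 106 CPM in putamen and 56.6, 64.7 and 95.4 CPM in caudate. Putamen was thus lowest of the 3 for GFAP and AQP4 and highest for GJB6 and ALDH1L1.

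In hippocampus all 6 calls of 24 comparisons set the dentate gyrus against a CA field, and their number was near the share over all genes (21.3%). SLC1A3 was at 993, 1183 and 1785 CPM in dentate gyrus, 1455, 1733 and 1980.2 CPM in CA1 and 1533, 1700.2 and 2132 CPM in CA3 (CA1 minus dentate gyrus 0.43 ± 0.10, edgeR FDR = 0.00370, and CA3 minus dentate gyrus 0.45 ± 0.10, edgeR FDR = 0.00239). ALDH1L1 went the other way, at 42.7, 53.6 and 74.3 CPM in dentate gyrus against 28.6, 40.2 and 64.1 CPM in CA3, lower in CA3 in all 8 animals (-0.44 ± 0.11), although the ALDH1L1 calls against both CA fields were lost without the block. AQP4 was higher in CA1 than in dentate gyrus (0.34 ± 0.10, not called without the block, Rhesus 7 or Rhesus 8), and SLC1A2 higher in CA3 (0.76 ± 0.28), a call lost on leaving out any of 5 animals. None of the 8 was called between CA1 and CA3 at this threshold. Between cerebellar cortex and vermis none was called, as for nearly all genes.

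Mid-aged animals were next compared with young ones in each region group (edgeR, sex as covariate, called at FDR below 0.1 and a fold above 2). None of 127 comparisons was called (lowest edgeR FDR = 0.24), beside 0.0164% over all genes. At an unadjusted p below 0.05 there were 26, where the share over all genes was 5.73%, and in 11 comparisons all 4 mid-aged animals were above all 4 young ones and in 2 below, where 3.87% of all genes did not overlap in either direction. The region groups come from the same 8 animals, so these comparisons, and those by sex below, are not independent of each other. DESeq2 called 1, GFAP in the pituitary, which was -2.66 ± 0.68 (DESeq2 FDR = 0.0129). Without the filter on low counts edgeR called 2, GFAP in the pituitary and in the olfactory bulb, and leaving out Rhesus 7 gave 2 calls (SLC1A2 in entorhinal and perirhinal cortex and in thalamus) and leaving out Rhesus 8 gave 1 (GFAP in thalamus).

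GFAP had a log2FC above 0 with age in 14 of 16 region groups, with a median of 0.44. The groups share the same 8 animals, so their signs are not independent. In cortex the 4 young animals were at 249, 242, 337 and 324 CPM (Rhesus 4, 7, 8 and 10), and the 4 mid-aged ones at 416, 404, 429.6 and 437 CPM (Rhesus 2, 3, 6 and 11). The mid-aged values lay above all of the young ones, by 0.55 ± 0.12 on the log2 scale (edgeR FDR = 0.58). The stages did not overlap either in hippocampus (0.82 ± 0.20), entorhinal and perirhinal cortex (0.61 ± 0.15) and medulla oblongata (0.83 ± 0.31), none of which passed the FDR. Without Rhesus 6 the medulla difference was 0.55 ± 0.24. In olfactory bulb the difference was 1.22 ± 0.29, with overlap. Hypothalamus was the other group besides the pituitary with a value below 0 (-0.30 ± 0.27).

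In the pituitary the mean GFAP level was lower in mid-aged than in young animals, although the test within this group was not passed. The young ones were at 8.86, 33.4, 2.49 and 16.9 CPM (Rhesus 4, 7, 8 and 10) and the mid-aged ones at 1.15, 4.17, 0.885 and 3.31 CPM (Rhesus 2, 3, 6 and 11), with overlap at the young animal Rhesus 8 (log2FC mid-aged minus young = -2.66 ± 0.78, edgeR FDR = 0.42). In a fit over all region groups the age difference of GFAP varied between groups (F test of region group by age stage, edgeR FDR = 0.00069), as did that of 1.65% of all genes, and none of the other 7 genes (lowest edgeR FDR among them 0.26, for GJA1). The pituitary's age difference minus that of cortex was -3.30 ± 0.55 on the log2 scale (edgeR FDR = 5.4e-05). Its error comes from a spread shared by all region groups, while the error within the pituitary alone was 0.78. The F test rests on the same shared spread, so neither value measures the spread of the pituitary by itself. Without the pituitary in the fit the F test's FDR was 0.33, and without Rhesus 7, the young animal with the highest pituitary GFAP, it was 0.0851. Beside this, the summed anterior pituitary markers were highest in mid-aged Rhesus 6 and 11 (350947 and 243084 CPM), and without these 2 libraries the difference from cortex was -3.02 ± 0.65 (edgeR FDR = 0.00812). AQP4 and SLC1A3 in the pituitary had age differences of -1.31 ± 0.87 and -1.28 ± 0.47 and were not called. The part of the other pituitary cells in these values was not tested.

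**Figure D5:**
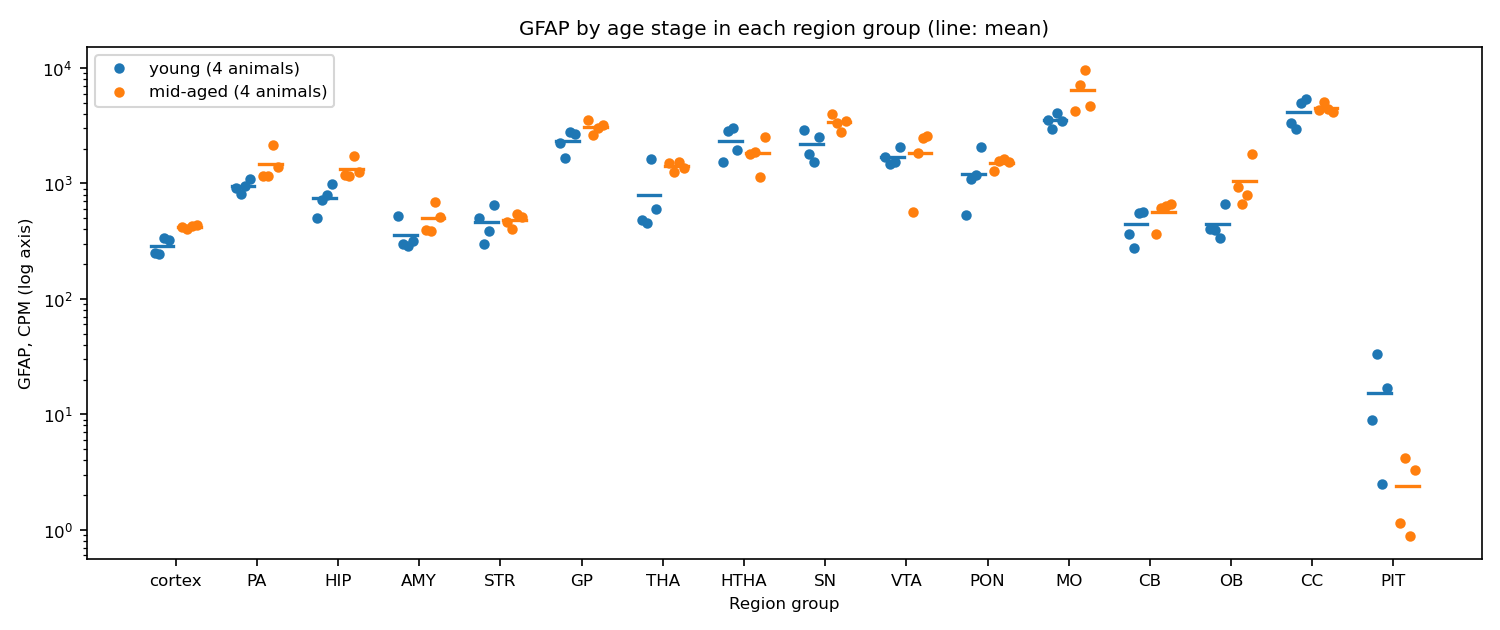
GFAP level (CPM, log axis) in each region group by age stage, with a point for each of 4 young and 4 mid-aged animals and a line at each mean. Mid-aged points sit above young ones without overlap in cortex, hippocampus, entorhinal and perirhinal cortex and medulla oblongata, and the pituitary means lie the other way round.

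By sex, likewise, none of 127 comparisons was called (edgeR, age stage as covariate, lowest edgeR FDR = 0.22), beside 0.105% over all genes. At an unadjusted p below 0.05 there were 9 (3.54% over all genes), and in 2 all 4 females were above all 4 males, GFAP in striatum (551 ± 69.1 against 387 ± 68.00 CPM, SD, n = 4 each) and GJA1 in amygdala (494 ± 19.5 against 396 ± 11.4 CPM). Over all genes the sexes did not overlap in 2.00% of comparisons. DESeq2 called 1, SLC1A3 in the pituitary (-1.29 ± 0.46, female minus male, DESeq2 FDR = 0.0753), and without the filter on low counts edgeR called that pair and AQP4 in ventral tegmental area. None of the 8 genes passed the F test of region group by sex (edgeR FDR of 0.64 or above), which 0.689% of all genes did.

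Over the means of the 51 sub-regions, GFAP and AQP4 had the closest patterns among the 8 genes (Pearson r of log2 CPM + 1 = 0.93, and 0.93 over 50 sub-regions without the pituitary). Most other correlations leaned on the pituitary. Between GFAP and SLC1A2 r was 0.07 with it and -0.63 without, and between AQP4 and SLC1A3 0.49 and -0.49. SLC1A2 and SLC1A3 stayed positive (0.83 and 0.62), GFAP and GJA1 also (0.82 and 0.74), and GJA1 and GJB6 fell from 0.78 to 0.40. The points share animals, libraries and scaling, and the values are descriptions.

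Of 12128 named genes with a mean of at least 1 CPM, those most like each astrocyte gene over the 51 sub-regions were found by the same r. For GFAP they were AQP4 (0.93), SELPLG (0.91) and LPAR5 (0.91), of which the last 2, a selectin ligand and a lysophosphatidic acid receptor, are known from immune cells, microglia included. For AQP4 they were SCRG1 (0.94), GFAP (0.93) and RFTN2 (0.93), and for GJA1 MLC1 (0.94), BCAN (0.92) and NWD1 (0.92), where MLC1 is an endfoot membrane protein and BCAN (brevican) a matrix proteoglycan. SLC1A2 was most like PPP2R2C (0.95), the AMPA receptor subunit gene GRIA3 (0.92) and CSMD1 (0.92). SLC1A3 was most like C20H16orf89 (0.98), with GPM6A (0.92) also among the 3, SLC4A4 most like S1PR1 (0.89), MIR9-1HG (0.89) and NDRG2 (0.89), GJB6 most like ACBD7 (0.92), ACSBG1 (0.91) and ATP13A4 (0.91), and ALDH1L1 most like BAALC (0.84), SOX21 (0.82) and GJA1 (0.82). Ranked without the pituitary, C20H16orf89 stayed first for SLC1A3 (0.94) and NWD1 stayed among the 3 for GJA1, and the first gene for GFAP became FAM187A (0.95), with CD4, a T cell coreceptor that microglia also carry, among its 3 (0.94). Microglia markers were above cortex in the groups highest for GFAP, as given with its levels. In the RefSeq table used for gene positions the span of FAM187A overlaps that of GFAP, so reads counted for one may come from the other. Other genes' spans also overlap those of SLC4A4, GJA1 and ALDH1L1 there, and the strand setting of the counting was not given in the sources used here.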

How the data were processed

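Total RNA was depleted of ribosomal RNA (Ribo-Zero) and made into stranded libraries (NEBNext Ultra Directional). Per the submitters' processing notes, reads were trimmed with Trim Galore 0.4.4, checked with FastQC 0.11.4, aligned with HISAT2 2.0.5 to Mmul 8.0.1 and counted with HTSeq 0.6.1 on Ensembl annotation 91. The deposited values are raw counts per gene, not normalized, with 7784678 to 31083490 counts per sample (median 10698602). The strand and overlap settings of the counting were not given in the sources used here.

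Counts were summed by region group within an animal and tested with edgeR 4.0.16 (quasi-likelihood; limma 3.58.1, R 4.3.3), with filterByExpr, TMM scaling and the animal as a block. Cortical and other sub-regions were fitted on sample counts. Age stage was tested with sex as covariate and sex with age stage, and p-values were adjusted over all genes. Errors of log2 fold changes are standard errors, which for edgeR were worked back from the fold change and its F statistic. DESeq2 1.42.0, other scaling, no filter, no block and leave-one-out fits were alternatives. Ratios and summaries used Python 3.11.15 with numpy 2.4.6, pandas 2.3.3, scipy 1.17.1 and matplotlib 3.10.9. Samples from 1 animal deviated together (880 of 960 correlations between region groups were over 0.1, mean 0.389 against -0.0532 between animals), and the labels name the animals, so the numbers pair the samples. No pair of samples of a sub-region held identical counts (0 of 1428 pairs). The scripts were tested on simulated data.

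The 8 genes were named in every comparison, and the panel genes by the 3 largest differences of a region group and 3 most alike genes by correlation. One result under this rule is not reported here. Members and gene lists were chosen with earlier results of these data known. RefSeq gene names and spans (assembly T2T-MMU8v2.0) were used only for names and overlaps. S100B, the ATAC-seq and midbrain samples and the transcript assembly were not analysed here.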

Additional observations from a re-analysis of the deposited data

Results flagged for a closer look

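Over 8 genes in 16 region groups, 8 sets of 8 animals held an animal whose gap to the nearest other exceeded Dixon's critical value, where chance flags about 5% of sets. In medulla oblongata, Rhesus 4 was lowest for AQP4 (406 CPM against 1268 to 2888 CPM in the other 7 animals), SLC4A4 (89.00 CPM against 223 to 427 CPM in the other 7 animals) and GJA1 (284 CPM against 772 to 1490.2 CPM in the other 7 animals). Rhesus 4 was also lowest for GFAP in pons (529 CPM against 1096 to 2057 CPM in the other 7 animals) and for SLC1A2 in cerebellum (11.1 CPM against 37.2 to 46.6 CPM in the other 7 animals). Rhesus 2 was lowest for GFAP in ventral tegmental area (562 CPM against 1468 to 2555 CPM in the other 7 animals) and for GJA1 in globus pallidus (244 CPM against 759.8 to 1028 CPM in the other 7 animals). Rhesus 11 was highest for SLC4A4 in hippocampus (318 CPM against 229 to 266 CPM in the other 7 animals).

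The age difference of GFAP varied between region groups (edgeR F test of region group by age stage, FDR = 0.00069), and that of the pituitary minus that of cortex was -3.30 ± 0.55 on the log2 scale (edgeR FDR = 5.4e-05). With 1 animal left out the latter ran from -3.77 (without Rhesus 3) to -2.42 (without Rhesus 7). Both results rest on a spread shared by all region groups, and the age test within the pituitary alone was not passed (edgeR FDR = 0.42).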

How the results depend on the processing

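Of 2053 values recomputed for single genes under the alternatives, 1862 kept their direction and call, 191 lost the call and 0 reversed. Pairs above and below cortex numbered 19 and 23, and 20 and 23 with DESeq2. At a fold above 4 they were 8 and 13, and with no fold threshold 42 and 40. Without the pituitary, which supplied 8 of the lower pairs, 15 lower pairs were left. Of the cortical pairs 7 exceeded 1.5-fold, and of the sub-region pairs 2 exceeded 2-fold. DESeq2 gave 1 call by age stage and 1 by sex where edgeR gave 0, and edgeR without the filter on low counts gave 2 and 2, and the cause was not tested.

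With 1 animal left out the counts ran from 18 to 20 higher and 23 to 24 lower pairs, 58 to 72 cortical pairs, 11 to 18 sub-region pairs, 0 to 2 by age stage and 0 to 0 by sex, and 7 genes among cortical sub-regions throughout. For the ratios they ran from 4 to 5 (SLC1A3 to SLC1A2), 3 to 5 (GJB6 to GJA1) and 12 to 13 (GFAP to ALDH1L1) groups, and with 7 animals the smallest p of the exact permutation test is larger. Without the replicate block that pairs samples by animal, cortical pairs fell from 71 to 44 and sub-region pairs from 16 to 6, higher and lower pairs were 20 and 23, genes among cortical sub-regions 7, and ratio groups 4, 4 and 13. Age stage and sex differ between animals, so these comparisons have no such block.

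Chosen after seeing the data were the fits and ratios without the medulla oblongata of Rhesus 6 (18 higher and 23 lower pairs) or the pituitary of Rhesus 6 and 11 (20 and 23), the fits of region group by age stage or sex, and the correlations without the pituitary. Age and sex comparisons rest on 4 animals a side. Levels of SLC1A2 in the pituitary rest on few counts.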

Other observations

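Besides GFAP, several astrocyte genes had age stages that did not overlap in a region group without passing the FDR. AQP4 was higher in mid-aged animals in olfactory bulb at 629 ± 56.3 CPM (mid-aged) beside 449 ± 42.9 CPM (young) (SD, n = 4 each) and in hippocampus at 777 ± 78.8 CPM (mid-aged) beside 593 ± 26.3 CPM (young). In substantia nigra this held for AQP4 at 1959 ± 249.9 CPM (mid-aged) beside 1350.3 ± 388 CPM (young), SLC4A4 at 471 ± 74.03 CPM (mid-aged) beside 300.0 ± 88.7 CPM (young) and SLC1A3 at 1085 ± 57.8 CPM (mid-aged) beside 808 ± 148 CPM (young), all higher in mid-aged animals. GJA1 was likewise higher in corpus callosum at 731 ± 55.7 CPM (mid-aged) beside 531 ± 90.5 CPM (young) and olfactory bulb at 436 ± 41.9 CPM (mid-aged) beside 329.9 ± 54.2 CPM (young) and lower in cortex at 389 ± 3.51 CPM (mid-aged) beside 433 ± 26.2 CPM (young). GJB6 was lower in thalamus at 102 ± 20.3 CPM (mid-aged) beside 135 ± 10.8 CPM (young). None of these was called (edgeR FDR of 0.30 or above). These pairs were named after their values were seen.

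Spread between animals differed by gene. Outside the pituitary the coefficient of variation of SLC1A2 over the 8 animals ran from 30.2% in cerebellum to 110.3% in hypothalamus, and that of SLC1A3 from 7.59% to 36.4%. The hypothalamus value leaned on the library of Rhesus 6. SLC1A2 there was at 105 ± 116 CPM with that library and 66.9 ± 44.1 CPM without it (SD, n = 8 and 7).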
